A study of Mus musculus with 4 samples.

Results

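The DNA replication genes described here are 37 genes of the machinery that copies the genome in S phase, chosen by name as a list of licensing factors, helicase subunits, clamps, polymerases, nucleotide enzymes and E-type cyclins. All 37 had a probe set (a group of short probes against 1 transcript), with 83 probe sets between them, of 18193 genes and 45101 probe sets in all. Total RNA of 4 mouse cell samples was measured on Affymetrix arrays, with 1 array for each sample. The samples were neural stem cells induced with 13 factors (iNSC_13F), the same kind of cell induced with 14 factors (iNSC_14F), primary-derived neural stem cells (NSC) and mouse embryonic fibroblasts (MEF). The medium of the induced cells and of NSC was N2 with laminin and the growth factors EGF and bFGF, and no source used here describes the culture of the fibroblasts. Adult liver cells and B lymphocytes are named in the series title as the cells of origin, but the labels do not say which of them gave rise to each induced sample, nor the strain or age of the animals. With 1 array per group there was no test, and no difference below has a replicate check.

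Replication starts with licensing, in which the origin recognition complex, Cdc6 and Cdt1 load the ring-shaped MCM helicase onto DNA. Cdc45 and the GINS proteins then activate the helicase, primase lays down short primers, and the polymerases copy DNA while held by the sliding clamp PCNA. Transcription of many of these genes is controlled by E2F factors and peaks around the entry into S phase, so that their summed RNA in a culture is widely used as a sign of proliferation. Neural stem cells in EGF and bFGF divide continually, and fibroblasts divide more slowly as they age in culture. In a bulk sample, fewer cells in S phase and less RNA per cell cannot be told apart.

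The values are MAS5 signals, and a floor of 103.9 was set from receptor genes of smell and taste. Values below it were raised to it before taking log2, so that a fold against such a value is a lower bound. The neural stem cell markers were above the floor for 7 of 11 on iNSC_13F, 8 on iNSC_14F and 10 on NSC, against 4 on MEF. Of 12 fibroblast markers 5, 4 and 3 were above it on the same 3 arrays, against 11 on MEF, and their summed signal was 3154, 4440 and 1690, against 251021 on MEF. None of the 5 hepatocyte, 5 B lymphocyte or 4 pluripotency markers was above the floor on any array, although the source label of all 4 samples names embryonic stem cells. The hybridization controls, foreign transcripts added to each sample, were 2.11-fold higher on iNSC_13F and 1.86-fold higher on iNSC_14F than on NSC, and 1.85-fold higher on MEF than on NSC. Dividing by these controls raises every NSC signal against the others: all 22 positive differences of members from NSC in iNSC_13F, and 18 of 23 in iNSC_14F, became negative, while the negative ones kept their sign. A positive difference from NSC below therefore depends on the scaling, and so does the size of a negative one. The 3' to 5' signal ratio of the actin control was 1.53 on iNSC_13F and 1.65 on iNSC_14F, against 1.35 on NSC and 1.42 on MEF.

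The first question was how replication genes stood in each kind of neural stem cell against fibroblasts. Of the measured members, 32 of 37 in iNSC_13F, 30 of 37 in iNSC_14F and 36 of 36 in NSC had a higher signal than in MEF, against 53.5%, 53.7% and 49.5% of all genes. These counts are by the brightest probe set at any size, and in NSC include Ccne1, at 1037 against 1036 in MEF. Past 2-fold, iNSC_13F had 20 of 37 members higher than MEF (54.1%, against 15.6% of all genes) and 4 lower (10.8%, against 20.9% of all genes). In iNSC_14F the counts were 21 higher (56.8%, against 18% of all genes) and 3 lower (8.11%, against 19% of all genes). In NSC 15 of 36 were past 2-fold on the higher side (41.7%, against 19.9% of all genes) and 0 were lower, against 17.5% of all genes. The median log2 difference of the members was 1.02 in iNSC_13F, 1.11 in iNSC_14F and 0.86 in NSC, where the medians of all genes were 0.09, 0.10 and -0.01. With scaling to the hybridization controls the NSC count was 35 and the NSC median 1.74, while the medians of iNSC_13F and iNSC_14F were 0.84 and 1.11. The medians of all genes were then 0.80 in NSC, -0.08 in iNSC_13F and 0.09 in iNSC_14F, so that much of the NSC rise was shared by all genes. The share of all genes past 2-fold was not counted with this scaling. These 3 comparisons share the MEF array.

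**Figure D1:**
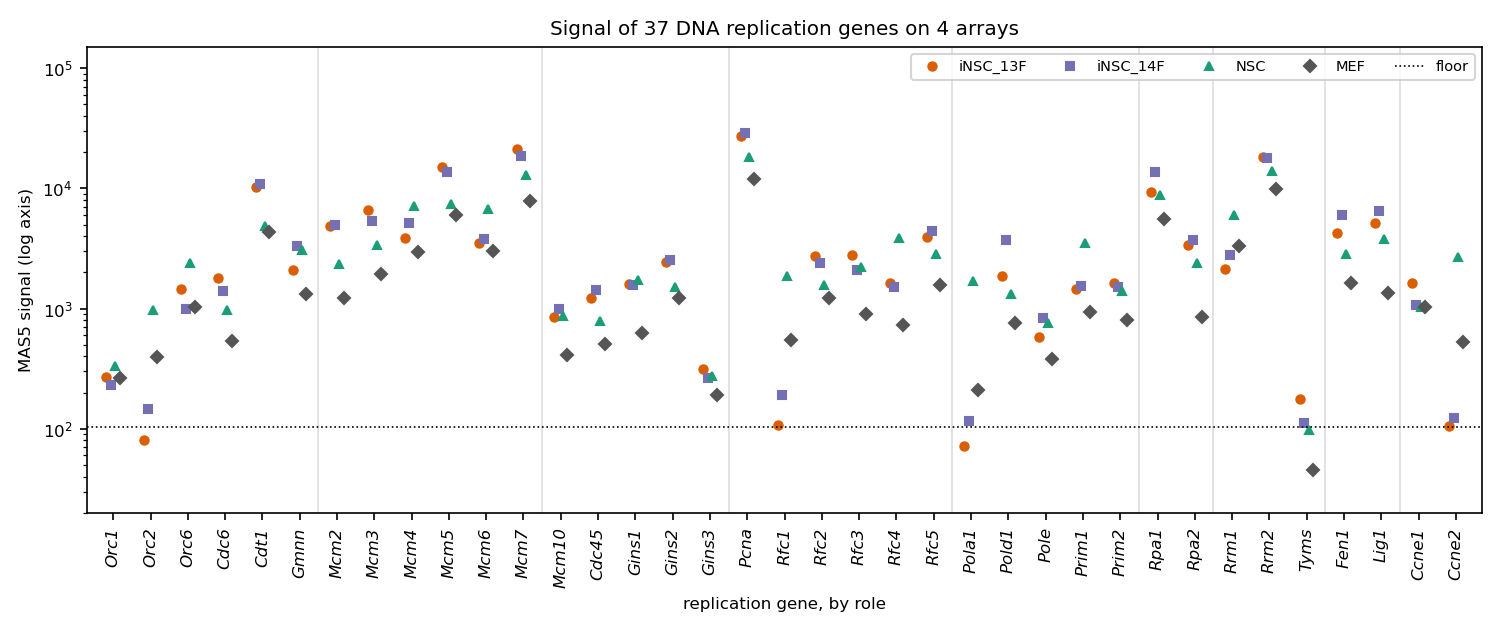
MAS5 signal (log axis) of the brightest probe set of each of 37 replication genes on the iNSC_13F, iNSC_14F, NSC and MEF arrays, 1 point per array, ordered by role with grey lines between roles and a dotted line at the floor of 103.9. MEF is the lowest array for most genes, while Orc2, Rfc1, Pola1 and Ccne2 lie near or below the floor on both induced arrays and at 981.5 or more on NSC.

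The probe sets of a gene gave a check within each array. Several probe sets were available for 29 members, and of the 83 probe sets 62 were above the floor on all 4 arrays and 11 on none. All 16 members that were 2-fold apart between iNSC_13F and MEF with several measured probe sets had them all in 1 direction, as did all 15 in iNSC_14F and all 8 in NSC. Every one of those probe sets was itself at least 2-fold apart for 10, 11 and 6 of these members. Among all members with several measured probe sets, 2-fold apart or not, these went 1 way for 23 of 25 in iNSC_13F, 25 of 25 in iNSC_14F and 21 of 24 in NSC. The exceptions in NSC were Orc1, Mcm3 and Ccne1. The brightest probe set, which gives the values below, carries the suffix _s_at or _x_at for 8 members, which marks probes that can match more than 1 transcript.

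The licensing factors did not move as a block. The signal of Cdc6, the ATPase that brings the helicase to origins, was 1806 in iNSC_13F, 1410 in iNSC_14F, 973 in NSC and 540 in MEF, or 3.34-fold and 2.61-fold higher in the induced cells than in MEF. For Cdt1, the partner of Cdc6 in loading, the signals were 10204 and 10895 in the induced cells, 4856 in NSC and 4314 in MEF. Cdt1 was 2.10-fold and 2.24-fold higher than NSC in the induced cells, with 2 of 2 measured probe sets past 2-fold each time, but these differences were -0.0036 and 0.27 (log2) with scaling to hybridization controls. Geminin (Gmnn), which binds Cdt1 and blocks a new round of licensing, had 2099 in iNSC_13F, 3312 in iNSC_14F, 3076 in NSC and 1316 in MEF, and was 2.52-fold higher in iNSC_14F and 2.34-fold higher in NSC than in MEF.

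The subunits of the origin recognition complex split. Orc2 had 81.0 in iNSC_13F, 145 in iNSC_14F, 981.5 in NSC and 394.9 in MEF. It was lower on the induced arrays than on either other array, by at least 9.45-fold in iNSC_13F and by 6.77-fold in iNSC_14F against NSC, with all 3 probe sets in that direction. Against MEF it was lower by at least 3.80-fold in iNSC_13F and by 2.72-fold in iNSC_14F, again on all 3. Orc6 had 1466 and 991 in the induced cells, 2404 in NSC and 1037 in MEF, and was 2.43-fold lower in iNSC_14F than in NSC. Orc1, the subunit whose level varies over the cell cycle in mammals, stayed within 2-fold on all arrays, at 269.5, 229.6, 330.8 and 263.3. With scaling to hybridization controls its differences from NSC were -1.37 in iNSC_13F and -1.43 in iNSC_14F (log2). The remaining subunits belong to a wider list of replication and control genes. Orc4 had 89.6 and 170 in the induced cells, 1282 in NSC and 957.5 in MEF, with 3 of 3 measured probe sets past 2-fold below NSC. Orc3 had 34.9 and 139.6 in the induced cells, 779 in NSC and 396.5 in MEF, but only 1 of its 3 probe sets was past 2-fold below NSC. Orc5 had 829.8 and 746 in the induced cells, 1924 in NSC and 401.6 in MEF, so that it lay between NSC and MEF.

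The MCM genes, which encode the 6 subunits of 1 ring, showed 2 patterns. Mcm2 had 4869 in iNSC_13F, 4969 in iNSC_14F, 2370 in NSC and 1232 in MEF, or 3.95-fold and 4.03-fold over MEF in the induced cells. Mcm3 (6554, 5386, 3395 and 1954), Mcm5 (15151, 13773, 7343 and 5995) and Mcm7 (21292, 18423, 12903 and 7920) had the same order, with the induced arrays highest and MEF lowest. Mcm4 and Mcm6 did not: NSC was their highest array. Mcm4 had 3836 in iNSC_13F, 5128 in iNSC_14F, 7085 in NSC and 2981 in MEF, and Mcm6 had 3534, 3821, 6739 and 3004. Both were over 2-fold higher in NSC than in MEF (2.38-fold and 2.24-fold), and neither reached 2-fold over MEF in the induced cells. Against NSC, the log2 differences of iNSC_13F were 1.04 for Mcm2, 0.95 for Mcm3, 1.05 for Mcm5 and 0.72 for Mcm7, and -0.89 for Mcm4 and -0.93 for Mcm6. In iNSC_14F they were 1.07, 0.67, 0.91 and 0.51, and -0.47 and -0.82. The span between the highest and the lowest subunit was 1.98 and 1.89, or 3.93-fold and 3.70-fold, and was 0.96 between NSC and MEF. Without _s_at and _x_at probe sets it was 2.35 and 2.14, and 1.23 between NSC and MEF. One scaling factor per array leaves this span as it is, but the sides on which the subunits lie do change: with scaling to hybridization controls all 4 positive differences turned in iNSC_13F, to -0.04 for Mcm2, -0.13 for Mcm3, -0.03 for Mcm5 and -0.35 for Mcm7. In iNSC_14F Mcm3 (-0.23) and Mcm7 (-0.38) turned, and Mcm2 (0.17) and Mcm5 (0.01) did not. Probe sets differed for Mcm5, where the dimmest of 3 was at -0.92 in iNSC_13F against NSC while the others were at 1.05 and 1.41.

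The promoter sequences of those MCM genes that held E2F-type motifs are shown, with Mcm6 alone from the pattern highest in NSC. They are RefSeq windows of the GRCm38.p6 build, from 250 bases before to 50 bases after a transcription start, 5' to 3' on the strand of the gene. Capitals mark matches to 4 E2F-type motifs, TTTCCCGC, TTTGGCGC, TTTCGCGC and TTTGCCGC, searched on both strands, and matches may overlap. Each of these 4 genes had 2 or more matches:
Mcm3, chr1:20820263-20820562, minus strand: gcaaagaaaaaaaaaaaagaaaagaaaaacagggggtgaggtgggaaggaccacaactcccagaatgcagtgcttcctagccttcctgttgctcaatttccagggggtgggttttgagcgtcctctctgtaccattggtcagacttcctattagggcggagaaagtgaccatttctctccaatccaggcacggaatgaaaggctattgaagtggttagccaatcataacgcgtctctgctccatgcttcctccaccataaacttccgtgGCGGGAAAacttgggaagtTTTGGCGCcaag
Mcm5, chr8:75109259-75109558, plus strand: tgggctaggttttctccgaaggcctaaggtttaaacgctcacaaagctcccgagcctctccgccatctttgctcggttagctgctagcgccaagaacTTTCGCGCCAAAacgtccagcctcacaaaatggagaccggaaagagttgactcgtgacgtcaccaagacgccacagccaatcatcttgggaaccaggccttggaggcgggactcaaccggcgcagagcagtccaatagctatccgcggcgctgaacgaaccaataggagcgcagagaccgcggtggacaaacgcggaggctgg
Mcm6, chr1:128359656-128359955, minus strand: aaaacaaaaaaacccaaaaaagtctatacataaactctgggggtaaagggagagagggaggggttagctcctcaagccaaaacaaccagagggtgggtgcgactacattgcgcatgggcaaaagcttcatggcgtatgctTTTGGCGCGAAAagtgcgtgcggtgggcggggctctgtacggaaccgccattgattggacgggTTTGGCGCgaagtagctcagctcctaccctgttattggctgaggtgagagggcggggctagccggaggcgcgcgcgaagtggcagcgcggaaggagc
Mcm7, chr5:138171834-138172133, minus strand: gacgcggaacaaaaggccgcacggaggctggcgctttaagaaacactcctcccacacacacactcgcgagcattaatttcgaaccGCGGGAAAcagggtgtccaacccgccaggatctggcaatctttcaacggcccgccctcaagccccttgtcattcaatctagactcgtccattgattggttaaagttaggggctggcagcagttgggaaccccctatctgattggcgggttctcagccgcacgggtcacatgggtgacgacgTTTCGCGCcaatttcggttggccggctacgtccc

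Mcm6, of the pattern highest in NSC, held 3 matches, 2 of them overlapping, and Mcm3, Mcm5 and Mcm7, of the pattern highest in induced cells, held 2 each, which overlap in Mcm5. Mcm2 had a window with no match, and no match was found for Mcm4, so that the 2 patterns cannot be compared by these sequences. Windows were found for 29 of the 37 members, and 12 of these genes (41.4%) had a match in at least 1 window, where 2.6% of all 27025 genes with a window did. The CCAAT box, on either strand, was present for 20 of the 29 (69%), and for 41.1% of all genes. Of the members at least 2-fold higher than MEF in iNSC_13F, 8 of 16 with a window had an E2F-type match, as did 4 of 11 of those higher in NSC. Among those at least 2-fold lower than NSC it was 1 of 6 in iNSC_13F and 1 of 7 in iNSC_14F, Pola1 each time. Among those at least 2-fold higher than NSC it was 2 of 3 in iNSC_13F and 2 of 4 in iNSC_14F. A match describes letters, not binding of a factor.

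The genes that activate the helicase were higher than in MEF nearly throughout. The signals of Cdc45, which joins the MCM ring and GINS in the active helicase, were 1225 in iNSC_13F, 1419 in iNSC_14F, 791 in NSC and 507 in MEF, or 2.42-fold and 2.80-fold over MEF in the induced cells. Gins1 had 1597, 1578 and 1724 in iNSC_13F, iNSC_14F and NSC, against 624 in MEF, with all 3 more than 2.5-fold higher and close to each other. Mcm10, a helicase cofactor, had 855, 989 and 863, against 412.5 in MEF, again with the 3 neural arrays together. Gins2 had 2444, 2538 and 1517, against 1220 in MEF, which is 2.00-fold and 2.08-fold in the induced cells and 1.24-fold in NSC. Its other probe set was 0.84 and 0.77 (log2) above MEF in the induced cells, short of 2-fold. Gins3 was dimmer, at 314, 263 and 274 against 191 in MEF, and stayed within 2-fold. Against NSC, no member of this group was 2-fold apart in either induced sample by its brightest probe set. With scaling to hybridization controls Gins1 was past 2-fold below NSC in both (-1.19 and -1.03, log2), and Mcm10 in iNSC_13F (-1.09). A dimmer probe set of Mcm10, below the floor on NSC, was at least 1.38 (log2) above NSC in iNSC_13F.

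The sliding clamp and its loader differed between subunits as the MCM ring did. In the induced cells the loader differed by more through Rfc1. Pcna, the clamp itself and a common proliferation marker, had 27300 in iNSC_13F, 28876 in iNSC_14F, 18203 in NSC and 11911 in MEF. It was 2.29-fold and 2.42-fold higher than MEF in the induced cells and 1.53-fold in NSC. The clamp loader, replication factor C, opens the clamp around DNA. Its large subunit gene Rfc1 had 107.2 in iNSC_13F, 192.1 in iNSC_14F, 1875 in NSC and 550.2 in MEF. It was thus 17.5-fold and 9.76-fold lower in the induced cells than in NSC, and 5.13-fold and 2.86-fold lower than in MEF, with all 3 probe sets past 2-fold each time. The signal in iNSC_13F is just above the floor. The small subunits stood on the other side of MEF: Rfc2 had 2721 and 2394 in the induced cells, 1583 in NSC and 1229 in MEF, and Rfc5 had 3932, 4439, 2831 and 1581. Rfc3 had 2771 and 2111 in the induced cells, 2214 in NSC and 897 in MEF. Rfc4 had 1635 and 1521 in the induced cells, 3834 in NSC and 730 in MEF, which put the induced cells 2.24-fold and 2.09-fold above MEF and 2.35-fold and 2.52-fold below NSC, on both probe sets. The span of log2 differences from NSC inside the loader was 4.91 in iNSC_13F and 3.94 in iNSC_14F, and it was 4.14 in iNSC_13F with the floor at the 99th percentile. It was set by Rfc1, at -4.13 and -3.29, where the next lowest subunit, Rfc4, was at -1.23 and -1.33.

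**Figure D2:**
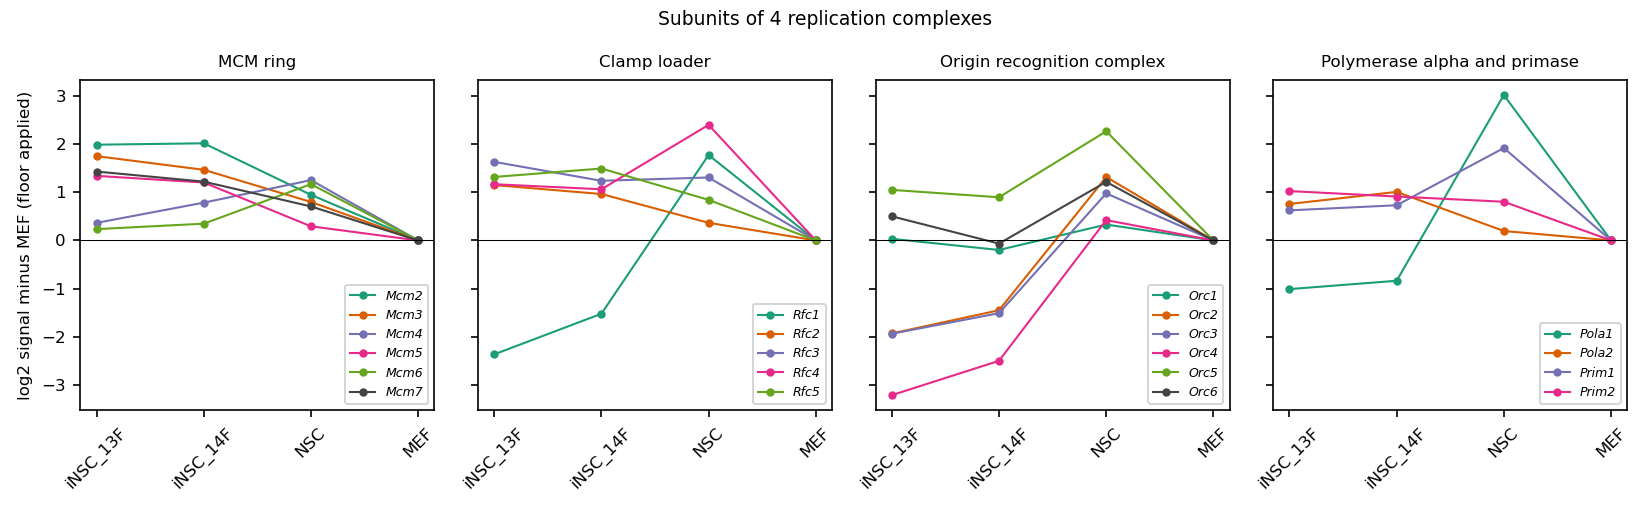
Log2 signal minus that of MEF, with the floor applied, for the subunits of 4 complexes on the iNSC_13F, iNSC_14F, NSC and MEF arrays, 1 line per gene. Lines of 1 complex part between NSC and the induced arrays, most for Rfc1, Orc4 and Pola1, and their spacing does not depend on a scaling factor per array except where the floor applies.

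Among the polymerases, Pola1 was the member with the largest difference between NSC and MEF. Pola1, the catalytic subunit of the polymerase that extends primers, had 72.3 in iNSC_13F, 117.1 in iNSC_14F, 1685 in NSC and 208.9 in MEF. NSC was the high sample, 8.07-fold over MEF, and it was below NSC by at least 16.2-fold in iNSC_13F and by 14.4-fold in iNSC_14F. Against MEF iNSC_13F was lower by at least 2.01-fold, which did not reach 2-fold under 3 alternatives, and iNSC_14F by 1.78-fold. These values rest on the 1 probe set of 2 that was above the floor. The window at its start held 1 E2F-type match, in capitals:
Pola1, chrX:93632106-93632405, minus strand: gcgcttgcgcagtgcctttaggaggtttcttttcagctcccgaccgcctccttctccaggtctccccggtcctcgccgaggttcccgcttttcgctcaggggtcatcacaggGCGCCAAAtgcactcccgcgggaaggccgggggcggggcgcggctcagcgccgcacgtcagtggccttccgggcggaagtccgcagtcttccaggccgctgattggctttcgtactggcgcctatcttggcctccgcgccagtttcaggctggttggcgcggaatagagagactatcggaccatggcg

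The other subunits of the polymerase alpha and primase complex had smaller differences from NSC, and not all in 1 direction. Prim1, the catalytic primase subunit, had 1442 in iNSC_13F, 1551 in iNSC_14F, 3528 in NSC and 936 in MEF, which is 2.45-fold and 2.27-fold lower than NSC in the induced cells on both probe sets. Prim2, the regulatory primase subunit, had 1642, 1519, 1409 and 808.5 on the same arrays and lay within 1.17-fold of NSC. Pola2, the second subunit of polymerase alpha and a gene of the wider list, had 839, 997, 569 and 497. Of the main replicative polymerases, Pold1, the catalytic subunit of polymerase delta, had 1874 in iNSC_13F, 3733 in iNSC_14F, 1320 in NSC and 764 in MEF. iNSC_14F was its highest array, 4.88-fold over MEF and 2.83-fold over NSC, with both probe sets past 2-fold. Pole, the catalytic subunit of polymerase epsilon, had 576, 828, 756 and 382, and was 2.17-fold over MEF in iNSC_14F and within 2-fold of it elsewhere.

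The next members serve the single-strand binding protein RPA and the processing of Okazaki fragments, the short pieces of the lagging strand. By the brightest probe set, Rpa1, Rpa2, Fen1 and Lig1 were 1.58-fold or more above MEF in all 3 neural samples. Rpa2, the middle RPA subunit, had 3380 in iNSC_13F, 3692 in iNSC_14F, 2379 in NSC and 857 in MEF, or 3.94-fold, 4.31-fold and 2.78-fold over MEF on both probe sets. Rpa1, the large subunit, had 9380, 13567, 8771 and 5538, and was past 2-fold in iNSC_14F (2.45-fold). Lig1, the ligase that joins the fragments, had 5129, 6445 and 3817 in the neural samples against 1360 in MEF, or 3.77-fold, 4.74-fold and 2.81-fold. Fen1, the nuclease that trims them, had 4222, 5987 and 2838, against 1624 in MEF. It was 2.60-fold and 3.69-fold higher than MEF in the induced cells, and 2.11-fold higher than NSC in iNSC_14F, a difference of 0.18 (log2) with scaling to hybridization controls. The other Fen1 probe set was 0.80 (log2) above NSC in iNSC_14F, short of 2-fold, and in NSC it was 0.44 (log2) above MEF.

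**Figure D3:**
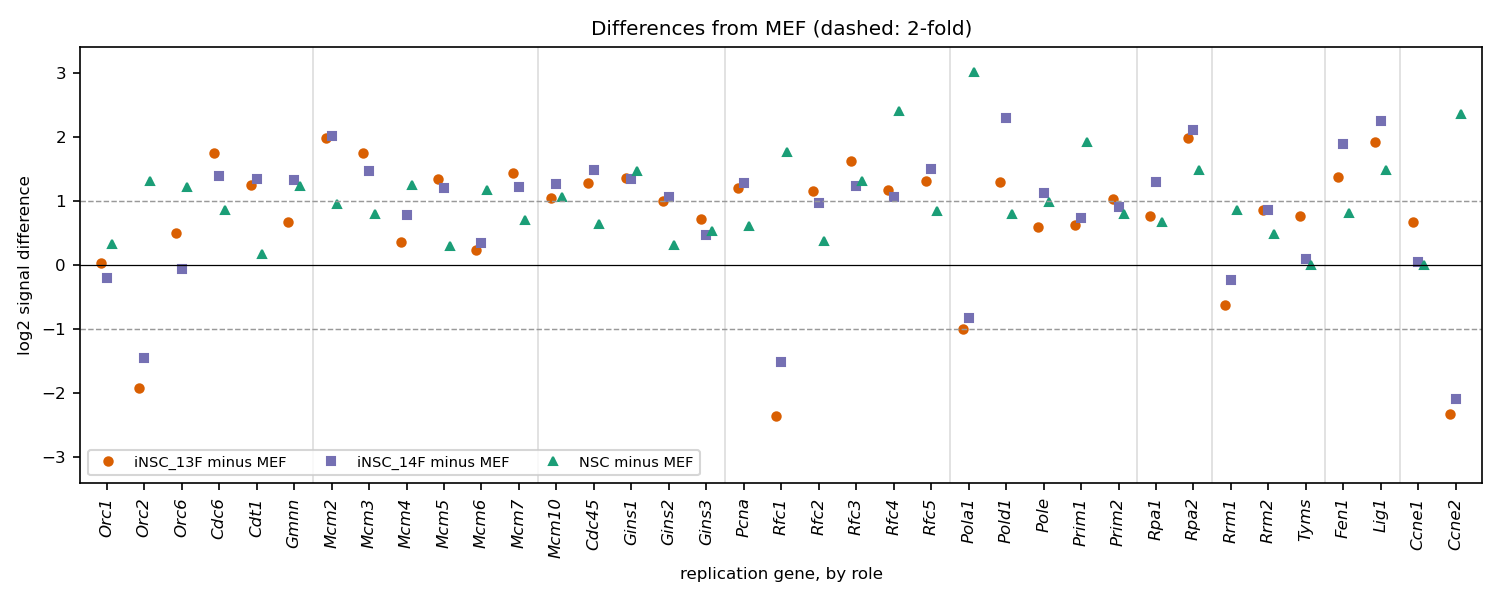
Log2 signal difference of iNSC_13F, iNSC_14F and NSC from MEF for the 37 replication genes by role, 1 point per array, with dashed lines at 2-fold. Points lie above the upper line for 20, 21 and 15 members, and Orc2, Rfc1 and Ccne2 are above it in NSC and below the lower line on both induced arrays. With scaling to hybridization controls the NSC points move up and 35 members are above the line, while the median of all genes moves from -0.01 to 0.80. The share of all genes above the line was not counted with that scaling.

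Nucleotide supply and the E-type cyclins each held a pair of genes that parted. Ribonucleotide reductase makes deoxynucleotides from a large subunit, Rrm1, and a small subunit, Rrm2. Rrm1 had 2134 in iNSC_13F, 2797 in iNSC_14F, 6010 in NSC and 3305 in MEF, and was 2.82-fold and 2.15-fold lower than NSC in the induced cells. Its other measured probe set was at -1.53 and -0.90 (log2), the second short of 2-fold. Rrm2 had 18124, 18012, 13975 and 9963 and stayed within 2-fold in all 6 comparisons. This brightest probe set was 0.38 and 0.37 (log2) above NSC in iNSC_13F and iNSC_14F. Its other probe sets were slightly below NSC, at -0.10 and -0.06 in iNSC_13F and -0.07 and -0.004 in iNSC_14F. Tyms, thymidylate synthase, was hardly measured: of its 4 probe sets 1 was above the floor, at 176.9 in iNSC_13F and 111.3 in iNSC_14F, with NSC and MEF below the floor. Cyclin E activates the kinase that starts S phase. Ccne1 had 1640 in iNSC_13F, 1073 in iNSC_14F, 1037 in NSC and 1036 in MEF, within 2-fold throughout. Ccne2 had 105.7, 123.6, 2705 and 529.1 on the same arrays. It had the largest differences from NSC measured above the floor among the members, 25.6-fold and 21.9-fold lower in the induced cells, and it was 5.01-fold and 4.28-fold lower than MEF there, while NSC was 5.11-fold higher than MEF. Both induced signals are close to the floor, and the gene has 1 probe set.

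The induced cells were then set against NSC, to ask whether they had the replication gene levels of the primary cells. The median of the members was near the median of all genes, and the counts on each side were near or under the background, so that the list as a whole did not stand out from other genes. In iNSC_13F 3 of 37 members were at least 2-fold higher (8.11%, against 14.8% of all genes) and 7 were at least 2-fold lower (18.9%, against 20.8%). In iNSC_14F 4 were higher (10.8%, against 16.9%) and 8 were lower (21.6%, against 19.3%). At 4-fold, 4 members were lower in each sample (10.8%), against 11.3% of all genes in iNSC_13F and 9.4% in iNSC_14F, and 0 were higher, against 1.07% and 1.42%. The 4 were Orc2, Rfc1, Pola1 and Ccne2, and their share is near that of all genes. The median log2 differences were 0.32 and 0.13 for the members and 0.30 and 0.33 for all genes. With scaling to hybridization controls they turned to -0.75 and -0.72 for the members and to -0.65 and -0.48 for all genes, and 15 members were then lower in iNSC_13F and 12 in iNSC_14F, with 0 higher in either. For these scaled counts, the shares of all genes past 2-fold were not counted. Both comparisons share the NSC array.

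The genes on each side can be named. Cdt1, Mcm2 and Mcm5 were those higher than NSC in iNSC_13F, and Cdt1, Mcm2, Pold1 and Fen1 those in iNSC_14F, all without a 2-fold difference after scaling to hybridization controls. Orc2, Rfc1, Rfc4, Pola1, Prim1, Rrm1 and Ccne2 were lower than NSC in iNSC_13F, and in iNSC_14F Orc2, Orc6, Rfc1, Rfc4, Pola1, Prim1, Rrm1 and Ccne2 were. All 7 and all 8 lay below NSC under each alternative that measured them. Of the members 2-fold apart with several measured probe sets, all probe sets went 1 way for 7 of 8 in iNSC_13F, Mcm5 being the exception, and for 9 of 9 in iNSC_14F.

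The differences from NSC varied with how bright a gene was. Members with a signal under 1000 on MEF, the array outside these comparisons, had a median log2 difference of -0.11 in iNSC_13F and -0.07 in iNSC_14F (17 genes), and brighter members had 0.57 and 0.63 (19 genes). With scaling to hybridization controls these medians were -1.19 and -0.97 for the dimmer and -0.50 and -0.27 for the brighter members, so that the brighter ones turned. Over all genes the medians were 0.24 and 0.31 for dimmer genes and 0.45 and 0.43 for brighter ones. Across the 36 members above the floor on MEF, the difference and the log2 MEF signal had a Pearson r of 0.39 (Spearman rho 0.40) in iNSC_13F and 0.41 (0.42) in iNSC_14F. Over all genes r was 0.10 (rho 0.10) among 9609 genes in iNSC_13F and 0.10 (0.07) among 9460 in iNSC_14F. The points are genes on the same arrays and not independent. The part of brightness, of the hybridization controls and of the 3' to 5' ratio in these differences was not tested.

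**Figure D4:**
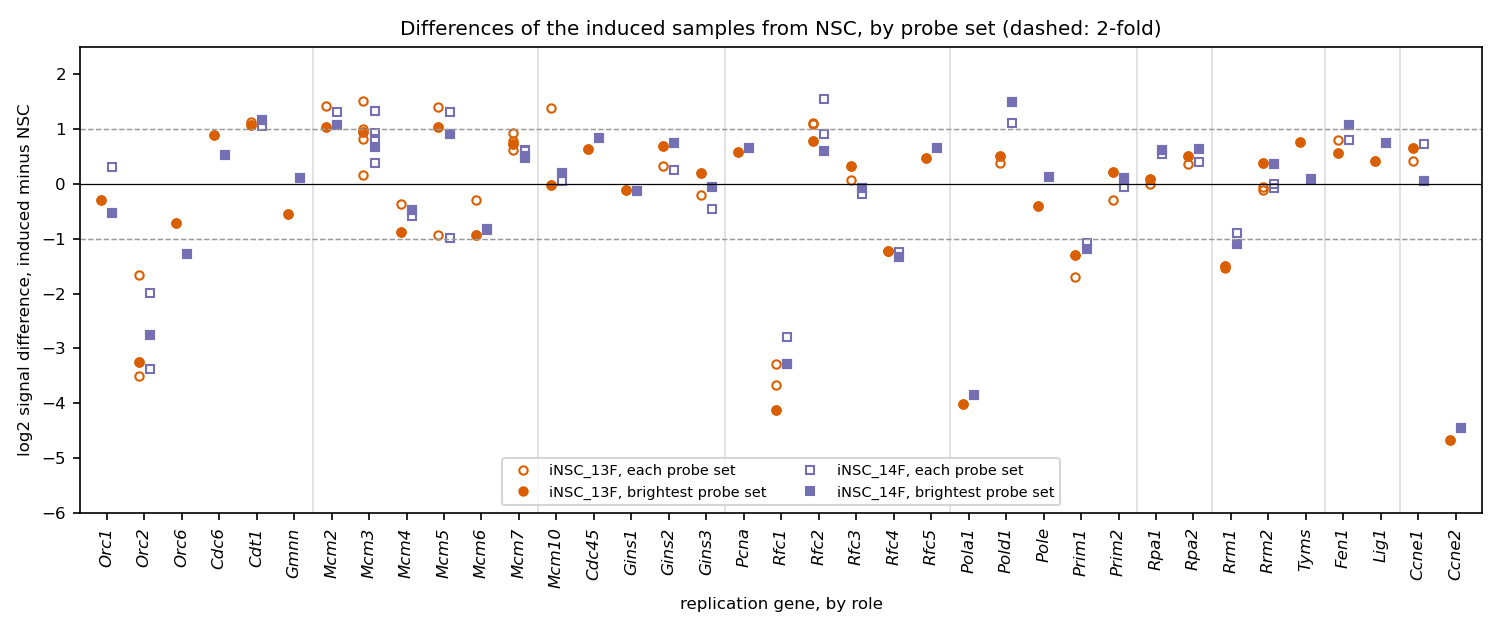
Log2 signal difference of iNSC_13F and iNSC_14F from NSC for the 37 replication genes by role, with a filled marker for the brightest probe set, open markers for every other probe set above the floor and dashed lines at 2-fold. Orc2, Rfc1, Pola1 and Ccne2 lie 4-fold or more below NSC in both samples, and most other members lie between the dashed lines. With scaling to hybridization controls the points move down, none stays above the upper line, and all 22 positive points of iNSC_13F and 18 of 23 of iNSC_14F turn negative.

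Against each other, the induced samples had no member past 2-fold by the brightest probe set. Of 25 members with several measured probe sets, these went 1 way for only 11. A dimmer probe set of Mcm10 was past 2-fold, at -1.32 (log2) in iNSC_14F against iNSC_13F. Of the 37 members, 0 were at least 2-fold higher in iNSC_14F than in iNSC_13F, against 6.03% of all genes, and 0 were lower, against 2.97%. The median log2 difference was 0.09 for the members and 0.07 for all genes. Pold1 had the widest gap, with 3733 in iNSC_14F and 1874 in iNSC_13F, or 1.99-fold. It was past 2-fold when arrays were scaled to hybridization controls, which gave 1 member higher, and the median of the probe sets gave 1 lower. Rfc1 (192.1 in iNSC_14F and 107.2 in iNSC_13F, 1.79-fold) and Gmnn (3312 and 2099, 1.58-fold) were next among the genes higher in iNSC_14F. Tyms and Ccne1 had the largest differences the other way, at 1.59-fold and 1.53-fold lower in iNSC_14F, but the other measured probe set of Ccne1 was 0.31 (log2) higher there. By the brightest probe set, all 37 members were thus within 2-fold between the induced samples, as were 91% of all genes.

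The other genes of replication and its control were counted from a list of 98 genes, of which 95 had a probe set. Of the 95, iNSC_13F had 24 past 2-fold above MEF (25.3%, against 15.6% of all genes) and 17 below it (17.9%, against 20.9%). iNSC_14F had 29 above (30.5%, against 18%) and 13 below (13.7%, against 19%), and NSC had 36 of 94 above (38.3%, against 19.9%) and 7 below (7.45%, against 17.5%). The NSC counts were 69 and 1 with scaling to hybridization controls, where the median of all genes was 0.80. With the median of the probe sets 7 genes were below MEF in iNSC_13F and 4 in iNSC_14F, where 19 were above. Shares of all genes past 2-fold were not counted in either setting. Cyclin D1 (Ccnd1), which drives the entry into the cycle downstream of growth factors, had 29677 in iNSC_13F, 20293 in iNSC_14F, 19955 in NSC and 3266 in MEF. The neural samples were 9.09-fold, 6.21-fold and 6.11-fold higher than MEF, on all 3 probe sets. Dna2, a nuclease of Okazaki fragment processing, had 1230, 1235 and 1453, against 246.5 in MEF, but 1 of its measured probe sets was past 2-fold in each sample. Cdkn2b, which encodes the cyclin D kinase inhibitor p15, was low in the neural samples, at 1053, 1201 and 1187, against 7029 in MEF.

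Against NSC, the wider list had more genes past 2-fold on the lower than on the higher side in the induced cells, at a size that depended on the processing. In iNSC_13F 29 of 95 genes were at least 2-fold lower (30.5%, against 20.8% of all genes) and 6 higher (6.32%, against 14.8%). In iNSC_14F 28 were lower (29.5%, against 19.3%) and 14 higher (14.7%, against 16.9%). With the median of the probe sets the lower count in iNSC_13F was 18, and with scaling to hybridization controls 54 were lower in iNSC_13F and 43 in iNSC_14F. That scaling also moved the medians of all genes, to -0.65 and -0.48. Shares of all genes past 2-fold were not counted with it or with the median of the probe sets. By sign alone, 50 of 95 were below NSC in iNSC_13F and 49 in iNSC_14F, where 61.7% and 62.4% of all genes were above it. The medians of the list were -0.17 and -0.04, against 0.30 and 0.33 for all genes. The median turned to 0.04 in iNSC_13F without genes below the floor on either array, and to 0.03 in iNSC_14F with quantile normalization. All genes had a median of 0.37 in both of these settings. Top2a, the topoisomerase of replicating and dividing cells, had 510 in iNSC_13F, 778 in iNSC_14F, 8374 in NSC and 1985 in MEF. It was 16.4-fold and 10.8-fold lower in the induced cells than in NSC by this probe set, but the other measured one differed by -0.81 and -0.26 (log2). Cul4b, a scaffold of the ubiquitin ligase family that removes Cdt1, had 131.7 and 179.8 in the induced cells, 1732 in NSC and 972 in MEF, with both probe sets past 2-fold. Dbf4, the activator of the kinase Cdc7 that fires origins, had 640 and 639 in the induced cells, 4102 in NSC and 1536 in MEF, on 1 measured probe set. On the higher side, the cyclin kinase inhibitor gene Cdkn1a (p21) had 9928 in iNSC_13F, 18491 in iNSC_14F, 4928 in NSC and 8133 in MEF, or 2.01-fold and 3.75-fold over NSC (-0.06 and 1.01 on the log2 scale with scaling to hybridization controls). Between the induced samples, 1 of 93 measured genes of the list was past 2-fold higher in iNSC_14F (1.08%, against 6.03% of all genes), E2f2 at 2.09-fold, and 0 were lower, against 2.97%. The count was 0 with quantile normalization or the median of the probe sets and 5 with scaling to hybridization controls.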

How the data were processed

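The deposited intensities are linear MAS5 signals per probe set; MAS5 is named in the submitters' processing notes, without version or settings. All 4 arrays had a 2% trimmed mean of 500 and were used as scaled. GEO's platform annotation named the probe sets, with symbols updated from RefSeq's GRCm38.p6 table (34741 of 34945 probe sets with 1 gene matched). Another 932 had several genes and 9211 had none, and these were left unnamed.

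Each gene is represented by the probe set with the highest mean log2 signal. The floor was the highest of the 4 arrays' 95th percentiles over 86 odorant, vomeronasal and taste receptor probe sets. Calls needed a 2-fold difference with the brighter array above the floor. All 6 pairs of arrays were compared in Python 3.11.15 with pandas 2.3.3 and numpy 2.4.6, without a test, since each group has 1 array. The members, lists and motifs were chosen with earlier results of these data known. All 37 members could be named; of the other 98 genes, up to 4 per direction and comparison with both arrays above the floor, and Orc3, Orc5, Pola2 and Dbf4 were named after their values were seen. The calls were tried on simulated data only with bright genes and changes larger than 2-fold. That trial does not cover changes near 2-fold or genes near the floor.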

Additional observations from a re-analysis of the deposited data

Results flagged for a closer look

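Orc2, Rfc1 and Ccne2 were at least 2-fold apart from MEF in opposite directions, higher in NSC and lower in both induced samples. The log2 differences from MEF were -1.93 (a bound) in iNSC_13F, -1.45 in iNSC_14F and 1.31 in NSC for Orc2. For Rfc1 they were -2.36, -1.52 and 1.77, and for Ccne2 they were -2.32, -2.10 and 2.35. How many of all genes have this pattern was not counted, so it cannot be called particular to the replication genes. The difference between NSC and the induced samples was not tested, since each is 1 array and all share the MEF array.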

How the results depend on the processing

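No paired analysis was possible because each group has 1 array and the labels give no replicate numbers. No replicate could be left out for the same reason. The 7 alternatives were quantile normalization, scaling to hybridization controls, the median over probe sets, a floor at the 99th percentile, a pseudocount of 16 in place of the floor, probe sets without the _s_at and _x_at suffix, and genes with both arrays above the floor. Of 85 differences of members past 2-fold, 61 stayed past it under each alternative that measured them. Shares of all genes past 2-fold were not counted under the alternatives, so the counts below have no such share beside them. Scaling to hybridization controls gave a median of 1.74 and 35 members higher for NSC against MEF, where the median of all genes was 0.80. For the induced samples against NSC it gave medians of -0.75 (iNSC_13F) and -0.72 (iNSC_14F), with 0 members higher in each and 15 lower in iNSC_13F. The medians of all genes were then -0.65 and -0.48. Of the members past 2-fold, Cdt1 (-0.0036), Mcm2 (-0.036) and Mcm5 (-0.030) turned in iNSC_13F against NSC, and 1 member was higher in iNSC_14F than in iNSC_13F. With the median of the probe sets, 5 members were higher in iNSC_13F than in NSC and 1 was lower in iNSC_14F than in iNSC_13F. Without members below the floor on either array, 2 were lower in iNSC_13F than in MEF, since bounds drop out. The wider list's median against NSC turned to 0.042 in iNSC_13F without genes below the floor on either array and to 0.034 in iNSC_14F with quantile normalization. For that list, scaling to hybridization controls gave 69 higher and 1 lower for NSC against MEF, 0 higher and 54 lower for iNSC_13F against NSC, 1 higher and 43 lower for iNSC_14F against NSC, and 5 higher in iNSC_14F than in iNSC_13F. The median of the probe sets gave 7 lower for iNSC_13F against MEF, 19 higher and 4 lower for iNSC_14F against MEF, and 3 higher and 18 lower for iNSC_13F against NSC. Between the induced samples 0 were higher with the median of the probe sets or quantile normalization, and 2 with a pseudocount. With both arrays above the floor, 11 were lower in iNSC_13F than in MEF. Its alternatives, those of the spans inside complexes and that of the brightness medians, were added after seeing the data. Counted over all comparisons and alternatives, spans inside complexes shifted by at least 0.226 (log2) 58 times, and by less 194 times. Other causes were not tested, and the number of arrays limits precision.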
